A study of Mus musculus with 21 samples.

Results

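The genes described here are the 8 repressors of the mammalian circadian clock, its negative limb: Per1, Per2, Per3, Cry1, Cry2, Ciart, Nr1d1 and Nr1d2. They were chosen by name, as the rows of the deposited expression table that carry these symbols, and all 8 were found among 53738 gene symbols. The libraries are bulk RNA-seq of whole quadriceps, taken from wildtype male C57/Bl6 mice aged between 22 and 26 weeks at sacrifice. There were 7 groups with 3 libraries each. Sedentary mice did no exercise. Untrained mice ran a treadmill bout to exhaustion without earlier wheel running, and trained mice ran the same kind of bout after 12 weeks of voluntary wheel running. Per the study's methods, mice were accustomed to the treadmill over 3 days before such tests. The 7 groups hold no trained mice without a bout, so effects of wheel running and of the bout cannot be told apart in trained muscle. Exercised mice gave muscle directly after the bout (0 h), 6 h later or 72 h later. In such whole tissue, fewer cells of a type and less RNA per cell cannot be told apart. The hour of day at sacrifice is not given in the sources used here, so time after the bout and time of day cannot be told apart, in comparisons with sedentary muscle, between time points or between training states.

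In the circadian clock, the activators BMAL1 (encoded by Arntl) and CLOCK bind E-box DNA and switch on the Per and Cry genes, Ciart and the Nr1d genes. PER and CRY proteins form complexes that return to the nucleus and inhibit BMAL1 and CLOCK, and CIART (also called CHRONO) represses the same activators. The nuclear receptors REV-ERBα (Nr1d1) and REV-ERBβ (Nr1d2) form a further loop that represses Arntl. Skeletal muscle holds such a clock of its own. Per1 and Per2 are in addition known as genes that respond quickly to signals from outside the cell, such as glucocorticoids and cAMP.

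Values are TPM, an abundance unit that is corrected for transcript length and scaled to a fixed total per library. They carry no read depth, so the error of each level can be judged only from how its group's 3 libraries scatter. The column of untrained 0 h replicate 1 held the same values as that of trained 0 h replicate 1 in every gene, which leaves 20 distinct libraries of 21. Where leaving this shared library out of both 0 h groups changed a call named below, this is said beside it, and the fold changes of the repressor genes that moved at 0 h are given both ways. Markers of skeletal muscle fibres summed to between 77460 and 103000 TPM per library, and no cell type marker examined was at 0 in any library. The fibre marker Mylpf stood at 11540 TPM in the shared library and at 24350 TPM or more in every other library. The mitochondrial genome supplied from 37.7% to 48% of each library's TPM.

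The stretches before the annotated start sites show where the letters of known clock elements lie. They were read from GRCm39 in the 500 bases before the canonical start site of each gene (GENCODE M39), and distances below are counted in bases from that site. Capitals mark an E-box (CACGTG), an E′ box (CACGTT, or AACGTG when read on the other strand) or a D-box (TTATGTAA). Both strands were searched, and the elements shown do not overlap. All sequences run 5′ to 3′ on the strand of the gene, and none of the printed stretches lies in an annotated exon of its gene. Per1, Ciart, Nr1d1, Per2, Per3 and Cry2 are shown because their transcripts moved or because this window holds a D-box and no E-box. For Per1, a stretch before its upstream start site is shown as well, with the distance counted from that site.
Per1, chr11:68989226-68989267, plus strand, E-box at -22: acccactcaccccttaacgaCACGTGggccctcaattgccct
Per1, upstream start, chr11:68985873-68985918, plus strand, E-box at -142: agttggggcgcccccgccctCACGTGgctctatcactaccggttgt
Ciart, chr3:95789564-95789644, minus strand, E-boxes at -42 and -28: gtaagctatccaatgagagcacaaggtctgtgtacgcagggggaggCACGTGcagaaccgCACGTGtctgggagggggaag
Nr1d1, chr11:98666488-98666546, minus strand, E-box at -367 and E′ box at -354: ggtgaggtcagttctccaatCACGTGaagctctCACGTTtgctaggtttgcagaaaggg
Per2, chr1:91387144-91387191, minus strand, D-box at -125: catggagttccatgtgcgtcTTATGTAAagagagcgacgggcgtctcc
Per3, chr4:151129253-151129347, minus strand, D-boxes at -187 and -140: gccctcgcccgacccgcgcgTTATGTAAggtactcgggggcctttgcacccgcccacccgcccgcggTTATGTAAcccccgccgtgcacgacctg
Cry2, chr2:92264555-92264600, minus strand, E′ box at -106: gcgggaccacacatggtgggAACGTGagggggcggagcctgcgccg

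**Figure D1:**
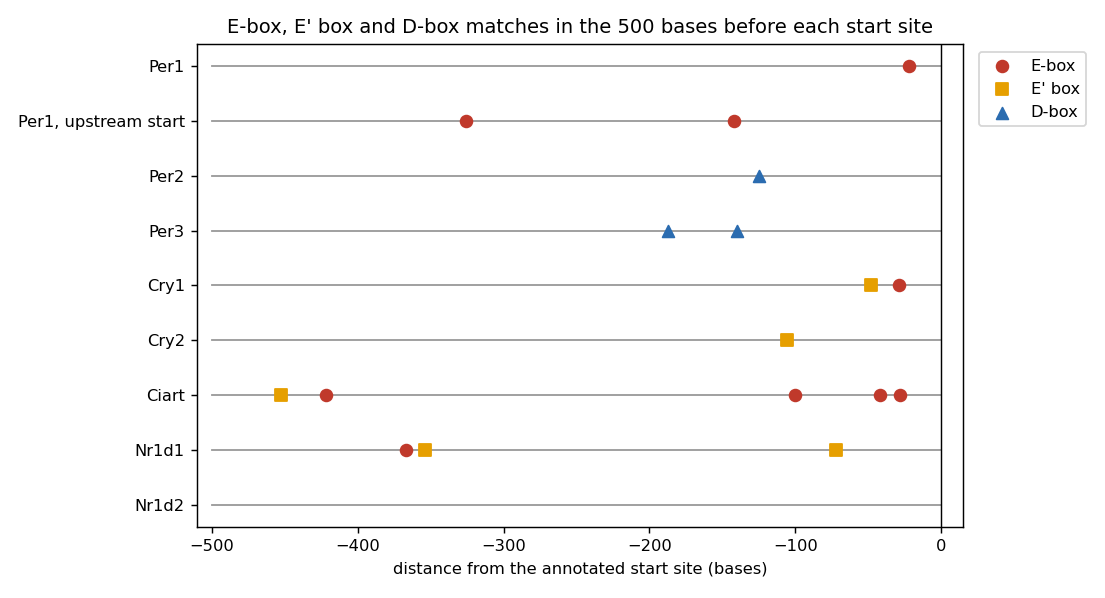
Matches to the E-box, E′ box and D-box in the 500 bases before the annotated start site of each gene (x axis, distance in bases; rows are genes, with an extra row for the upstream start of Per1). Ciart holds 4 E-boxes and 1 E′ box, Per2 and Per3 hold D-boxes and no E-box, and Nr1d2 holds none of these letters.

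Among 21770 promoters of protein-coding genes with the same window, 9.68% held an E-box, and 4 of the 8 repressor genes did (Per1, Cry1, Ciart and Nr1d1). An E′ box lay in 8.55% of all promoters and in 4 of the 8 (Cry1, Cry2, Ciart and Nr1d1). A D-box, the element of the clock output factors DBP and NFIL3, lay in 1.92% of all promoters and in 2 of the 8 (Per2 and Per3). The cAMP response element TGACGTCA lay in 1.96% of all promoters and in 0 of the 8. The ROR response element (0.671% of promoters), the heat shock element (0.868%) and the full glucocorticoid response element (0.00459%) were likewise matched in 0 of the 8. A match describes letters in this window and not a bound site, and elements farther away were not searched.

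In sedentary muscle, the REV-ERB genes had the highest TPM of the 8 and Per2 the lowest. Nr1d1 stood at 53.3 ± 1.87 TPM (SD, n = 3) and Nr1d2 at 16.1 ± 2.28. Cry2 stood at 6.07 ± 0.837 TPM, and the median of Cry1, which varied more between libraries than any other member, was 3.82. Per3 stood at 2.71 ± 0.427, Per1 at 2.01 ± 0.773, Ciart at 1.97 ± 0.729 and Per2 at 0.459 ± 0.163 TPM.

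**Figure D2:**
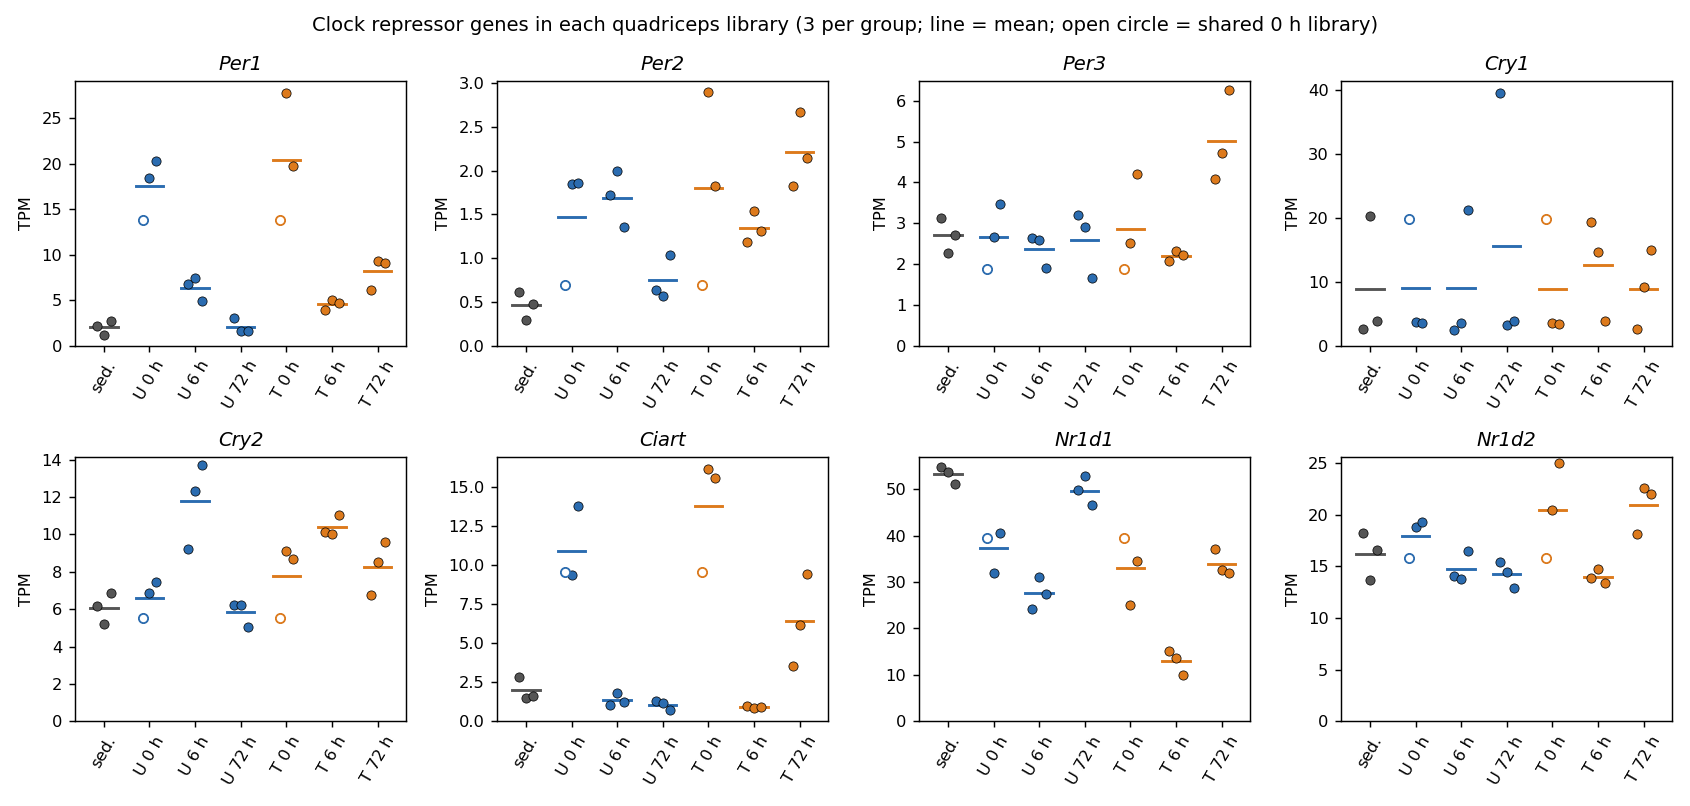
TPM of the 8 repressor genes (y axis of each panel, linear from 0) in every library of the 7 groups (x axis; sed., sedentary; U, untrained; T, trained). Points are libraries, lines are group means and open circles mark the library present in both 0 h groups. Per1 and Ciart stand highest at 0 h and again above sedentary muscle in trained 72 h libraries, Nr1d1 is lowest in trained 6 h libraries, and Cry1 splits into low and high libraries within groups.

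The comparisons with sedentary muscle ask how the level of each gene at each time differed from muscle with no exercise, after the bout alone (untrained) or after wheel running and the bout (trained). A gene was called changed at an adjusted p below 0.05 and at least 1.5-fold on the log2(TPM + 0.5) scale (limma, Benjamini-Hochberg over 11819 tested genes). At 0 h, 2 of the 8 genes were called in untrained muscle, where 3.59% of all tested genes were, and both rose (Per1 and Ciart). In trained muscle at 0 h, 4 of the 8 were called against 3.74% of all tested genes: Per1, Per2 and Ciart rose and Nr1d1 fell. At 6 h, 4 of the 8 were called in untrained muscle against a background of 4.42%, with Per1, Per2 and Cry2 up and Nr1d1 down. In trained muscle at 6 h, Per1 and Cry2 rose and Nr1d1 fell, 3 of the 8 against 3.85%. At 72 h, 0 of the 8 were called in untrained muscle, where 0.00846% of all genes were, and 1 of the 8, Ciart, had an unadjusted p below 0.05 by limma, as did 682 of the 11819 tested genes. In trained muscle at 72 h, Per1 alone was called, 1 of the 8 against 0.169%. Without the shared library, Per2 was also called in untrained muscle at 0 h, in trained muscle at 6 h and, with Ciart, in trained muscle at 72 h. The 8 genes had a median log2 fold change of 0.59 in trained muscle at 72 h, beside -0.04 over all tested genes, and of -0.07 in untrained muscle at 72 h, beside 0.04.

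**Figure D3:**
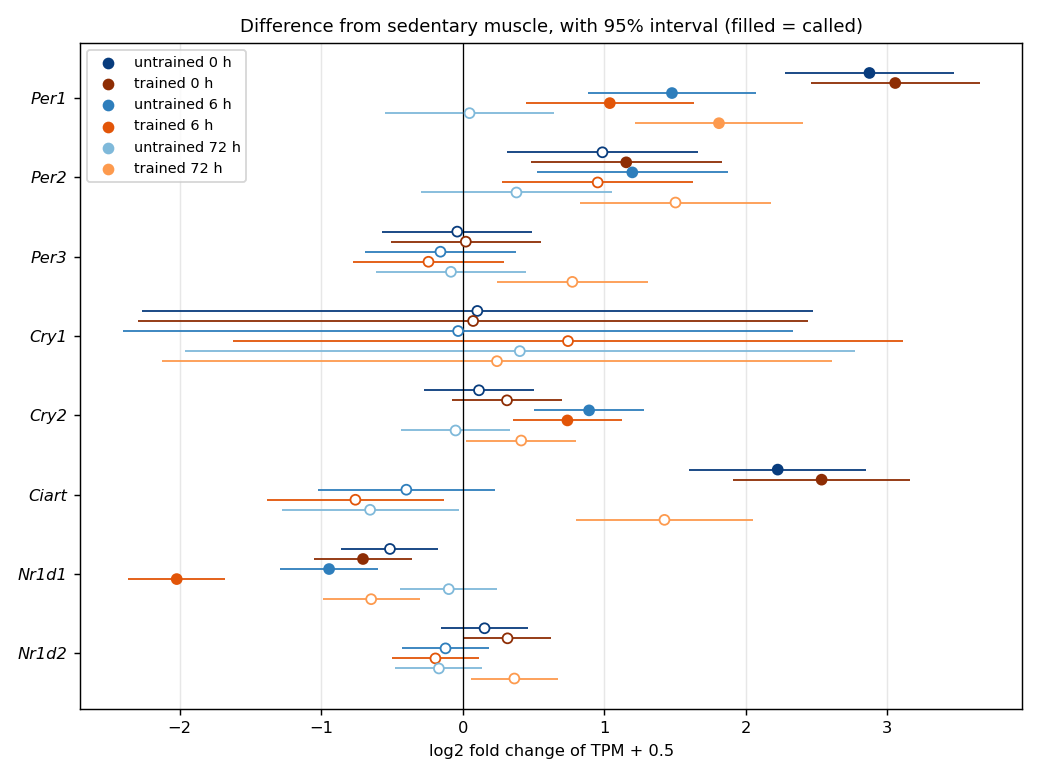
Log2 fold change of TPM + 0.5 against sedentary muscle (x axis) for the 8 genes (rows), with 95% intervals as bars, for untrained (blue) and trained (orange) muscle, with time after the bout running from dark (0 h) to light (72 h). Filled points passed the call rule. The interval of Per1 lies above 0 in every comparison but untrained 72 h, and Nr1d1 reaches -2.02 in trained muscle at 6 h.

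Per1, a PER protein gene with a fast response to stimuli, showed the largest rise of the 8 genes at 0 h. It stood at 2.11, 1.20 and 2.73 TPM in the 3 sedentary libraries. The untrained 0 h libraries held 13.8, 18.4 and 20.3 TPM, and the trained 0 h libraries 13.8, 27.7 and 19.8. All 0 h libraries thus lay above all sedentary ones. The rise was 7.33-fold in untrained muscle (log2 2.87 ± 0.281 SE, adjusted p = 5.72e-06) and 8.31-fold in trained muscle (log2 3.06 ± 0.281 SE, adjusted p = 2.8e-06). Leaving out the shared library gave log2 fold changes of 3.03 and 3.30.

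By 6 h, Per1 had dropped but stayed above sedentary muscle in both training states. Untrained 6 h libraries held 6.71, 7.37 and 4.94 TPM, and trained ones 3.86, 5.01 and 4.67, with no overlap with the sedentary libraries. The log2 fold change was 1.48 ± 0.281 SE in untrained muscle (adjusted p = 0.00275) and 1.04 ± 0.281 SE in trained muscle (adjusted p = 0.0264). The call in trained muscle was lost when sedentary replicate 1 or 2 or trained 6 h replicate 2 or 3 was left out, with adjusted p between 0.0194 and 0.121 over the 6 libraries left out in turn.

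At 72 h the training states parted. Untrained libraries held 2.98, 1.61 and 1.65 TPM of Per1 and overlapped the sedentary ones. Trained libraries held 6.07, 9.28 and 9.06 TPM, all above every sedentary and every untrained 72 h library. Per1 was 3.51-fold higher than in sedentary muscle (log2 1.81 ± 0.281 SE, adjusted p = 0.0178), a call that was lost without sedentary replicate 2 or trained 72 h replicate 2 or 3 (adjusted p up to 0.133). In the order of group means, the neighbours that did not overlap were untrained 0 h above trained 72 h, and trained 6 h above untrained 72 h.

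Per2, the PER gene most closely tied to core clock function, was the lowest of the 8 genes in sedentary muscle. Sedentary libraries held 0.616, 0.290 and 0.469 TPM. The shared 0 h library held 0.697 TPM, close to sedentary muscle, while the other untrained 0 h libraries held 1.85 and 1.86 and the other trained ones 2.90 and 1.82. The log2 fold change at 0 h was 1.16 ± 0.318 SE in trained muscle (adjusted p = 0.0317) and 0.99 ± 0.318 SE in untrained muscle (adjusted p = 0.0711). Without the shared library the values were 1.57 (adjusted p = 0.000387) and 1.31 (adjusted p = 0.00177). The call in trained muscle was lost without sedentary replicate 1 or 2 or trained 0 h replicate 2 or 3 (adjusted p up to 0.132), and under each of 3 other scalings of the libraries.

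Between 0 h and 6 h, Per2 differed by 0.21 on the log2 scale in untrained muscle (95% interval -0.46 to 0.89) and by -0.20 in trained muscle (-0.88 to 0.47). These differences, without the shared library, which was low in Per2, were -0.11 and -0.61 (adjusted p = 0.806 and 0.0622). Untrained 6 h libraries held 1.73, 1.99 and 1.36 TPM (log2 fold change 1.20 ± 0.318 SE against sedentary, adjusted p = 0.0252), and trained ones 1.19, 1.54 and 1.31 (0.95 ± 0.318 SE, adjusted p = 0.0696). The call in untrained muscle was lost without sedentary replicate 2 or 3 or untrained 6 h replicate 2 (adjusted p up to 0.0998). At 72 h, untrained libraries held 0.640, 0.572 and 1.04 TPM and trained ones 1.83, 2.67 and 2.14, the highest group mean of this gene. The trained 72 h libraries lay above all sedentary ones, with a log2 fold change of 1.5 ± 0.318 SE and an adjusted p of 0.0537, which missed the threshold.

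Per3, a PER gene thought to be dispensable for the core rhythm, did not differ from sedentary muscle past the threshold in any comparison with it. Its group means lay between 2.20 and 2.87 TPM everywhere but in trained 72 h muscle. There the libraries held 4.09, 4.72 and 6.26 TPM, above the sedentary values of 3.13, 2.28 and 2.71. The log2 fold change was 0.77 ± 0.250 SE (95% interval 0.24 to 1.31, adjusted p = 0.22). Per3 shares 154 exonic bases with Uts2 on the other strand, which had a mean of 0.0965 TPM.

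Cry1, one of the CRY repressors, could not be resolved in these data. Sedentary libraries held 2.57, 20.2 and 3.82 TPM, and untrained 72 h libraries 39.6, 3.19 and 3.80. Every group held at least 1 library at 9.20 TPM or more and at least 1 at 3.83 or less, and no library lay between those values. The standard error of each comparison was 1.12 on the log2 scale, and none was called. Against sedentary muscle, the 95% interval in untrained muscle at 6 h ran from -2.40 to 2.34, so changes of several fold in either direction were not detectable. The annotated Cry1 transcripts run from 177 to 3789 bases, and TPM depends on the length assigned to each. Whether transcript assignment plays a part in the split was not tested.

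Cry2, the other CRY gene, was called higher than in sedentary muscle at 6 h in both training states. Sedentary libraries held 6.17, 5.18 and 6.85 TPM. Untrained 6 h libraries held 9.25, 12.4 and 13.7 TPM and trained ones 10.2, 10.1 and 11.03, all above sedentary muscle. The rise was 1.86-fold in untrained muscle (log2 0.89 ± 0.183 SE, adjusted p = 0.00486) and 1.67-fold in trained muscle (log2 0.74 ± 0.183 SE, adjusted p = 0.0163). The call in trained muscle was lost without sedentary replicate 2 or trained 6 h replicate 3, with adjusted p up to 0.0733. The shared 0 h library held 5.54 TPM, within the sedentary range, while the others held 6.853 and 7.47 (untrained) and 9.12 and 8.69 (trained), above the highest sedentary value of 6.847. Cry2 was not called at 0 h, with log2 fold changes of 0.11 in untrained and 0.31 in trained muscle, or 0.23 and 0.53 (adjusted p = 0.506 and 0.081) without the shared library. Between 0 h and 6 h in trained muscle it differed by 0.43 (adjusted p = 0.0982), or by 0.21 (adjusted p = 0.387) without the shared library, and was not called. At 72 h, Cry2 stood at 5.83 ± 0.692 TPM in untrained and 8.28 ± 1.43 in trained muscle, and neither differed from sedentary muscle past the threshold. Cry2 shares 296 exonic bases with D930015M05Rik, a long non-coding gene on the other strand with a mean of 0.909 TPM.

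Ciart, whose product represses BMAL1 and CLOCK, was high at 0 h, and of the 8 genes it differed most between 0 h and 6 h in both training states. Sedentary libraries held 2.81, 1.503 and 1.59 TPM. Untrained 0 h libraries held 9.55, 9.34 and 13.8 TPM and trained ones 9.55, 16.2 and 15.6, far above sedentary muscle without overlap. The rise was 4.68-fold in untrained muscle (log2 2.23 ± 0.294 SE, adjusted p = 0.00012) and 5.8-fold in trained muscle (log2 2.54 ± 0.294 SE, adjusted p = 3.18e-05). The log2 fold changes were 2.30 and 2.77 without the shared library.

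At 6 h, Ciart was back in the range of sedentary muscle or lower. Untrained libraries held 1.05, 1.78 and 1.21 TPM and trained ones 0.999, 0.826 and 0.938. The trained 6 h libraries all lay below the sedentary ones, with a log2 fold change of -0.76 ± 0.294 SE and an adjusted p of 0.12. At 72 h, untrained libraries held 1.28, 1.13 and 0.720 TPM, while trained ones held 3.55, 6.14 and 9.45. Against sedentary muscle, trained 72 h muscle had a log2 fold change of 1.43 ± 0.294 SE and an adjusted p of 0.0514. With each library left out in turn, that adjusted p ran from 0.0218 (without trained 72 h replicate 1) to 0.2 (without replicate 2). Ciart shares 250 exonic bases with C920021L13Rik on the other strand, which had a mean of 0.389 TPM.

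Nr1d1, encoding REV-ERBα, was the only one of the 8 genes with called decreases against sedentary muscle. Sedentary libraries lay close together at 54.8, 53.8 and 51.2 TPM. Untrained 0 h libraries held 39.5, 31.9 and 40.6 TPM and trained ones 39.5, 25.0 and 34.6, all below sedentary muscle. The log2 fold change was -0.70 ± 0.162 SE in trained muscle (adjusted p = 0.0124) and -0.51 ± 0.162 SE in untrained muscle (adjusted p = 0.0648). Without the shared library the values were -0.84 (adjusted p = 0.00954) and -0.56 (adjusted p = 0.0968). The call in trained muscle was lost without trained 0 h replicate 2, with an adjusted p of 0.0573.

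The decrease was deeper at 6 h. Untrained libraries held 24.1, 31.2 and 27.5 TPM, a 1.92-fold decrease (log2 -0.94 ± 0.162 SE, adjusted p = 0.00126). Trained libraries held 15.2, 13.7 and 9.97 TPM, a 4.06-fold decrease (log2 -2.02 ± 0.162 SE, adjusted p = 7.81e-06). These trained 6 h libraries were the lowest of all 7 groups and overlapped none of them. At 72 h, untrained libraries held 49.8, 52.9 and 46.5 TPM, overlapping sedentary muscle, and trained ones 37.2, 32.5 and 32.0, all below it (log2 fold change -0.65 ± 0.162 SE, adjusted p = 0.101).

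The 3′ part of Nr1d1 overlaps Thra, the gene of thyroid hormone receptor alpha, on the other strand. They share 1694 of the 3242 exonic bases of Nr1d1. The library kit does not mark strand, so reads of the shared bases cannot be told apart by strand. Thra stood at 26.7 ± 0.083 TPM in sedentary muscle, 19.9 ± 2.53 in untrained 6 h muscle and 16.4 ± 0.508 in trained 6 h muscle. Its log2 fold change in trained muscle at 6 h was -0.69 ± 0.0706 SE (adjusted p = 3.23e-05), beside -2.02 for Nr1d1. How far each gene's value carries reads of the other was not tested.

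Nr1d2, encoding REV-ERBβ, was not called against sedentary muscle in any comparison, and its group means stayed between 14.0 and 20.9 TPM. In trained muscle at 6 h it stood at 13.8, 14.7 and 13.4 TPM, beside 18.2, 13.7 and 16.5 in sedentary muscle. The log2 fold change there was -0.19 with a 95% interval from -0.50 to 0.11, which lies apart from the interval of Nr1d1, -2.36 to -1.68. The difference between the REV-ERB genes was not tested itself.

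Trained and untrained muscle were then compared at each time, which tests whether the levels differed between training states and not whether the response to the bout did. At 0 h, 0 of the 8 genes were called, and the background was 0%. By limma, 143 of 11819 genes and 0 of the 8 had an unadjusted p below 0.05, and 1 of the 3 libraries was the same in both groups. At 6 h, 1 of the 8 was called against 2.01% of all tested genes. Nr1d1 was 2.11-fold lower in trained muscle (log2 -1.08 ± 0.162 SE, adjusted p = 0.00108), with 3 of 3 trained libraries below every untrained one. The call held with each of the 6 libraries left out in turn, and the adjusted p was 0.151 when only these 2 groups entered the fit. Thra differed by -0.27 ± 0.0706 SE (adjusted p = 0.0422), less than the fold asked for. The other 7 genes had log2 differences between -0.44 (Per1) and 0.78 (Cry1).

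At 72 h, 2 of the 8 genes were called between training states, against 0.245% of all tested genes, and both were higher in trained muscle. Ciart was 4.23-fold higher (log2 2.08 ± 0.294 SE, adjusted p = 0.00679), and no trained library overlapped an untrained one. The call of Ciart held with each library left out, with adjusted p between 0.00139 and 0.0456. Per1 was 3.39-fold higher (log2 1.76 ± 0.281 SE, adjusted p = 0.0125), also without overlap. This call was lost without untrained 72 h replicate 2 or 3 or trained 72 h replicate 2 or 3, with adjusted p up to 0.099. With only these 2 groups in the fit, the adjusted p was 0.0707 for Ciart and 0.0635 for Per1.

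The other genes in this comparison missed the threshold, although the trained 72 h libraries of Per2, Per3, Cry2 and Nr1d2 all lay above the untrained ones and those of Nr1d1 all below. The log2 difference was 1.12 ± 0.318 SE for Per2 (adjusted p = 0.131), 0.86 ± 0.250 SE for Per3 (adjusted p = 0.135) and 0.53 ± 0.145 SE for Nr1d2 (adjusted p = 0.116). It was 0.46 ± 0.183 SE for Cry2 and -0.55 ± 0.162 SE for Nr1d1 (adjusted p = 0.137). Without the shared library in the fit, Per2 was also called (adjusted p = 0.0162). The median over the 8 genes was 0.69, beside -0.08 over all tested genes.

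**Figure D4:**
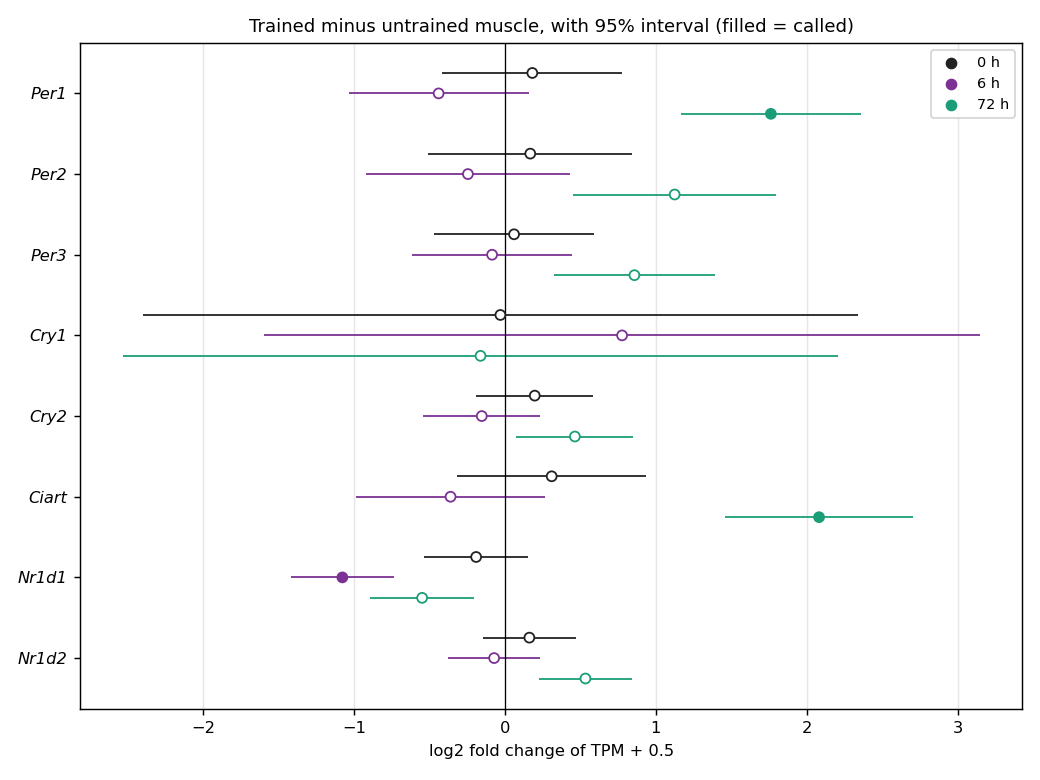
Log2 difference of TPM + 0.5 between trained and untrained muscle (x axis) for the 8 genes (rows) at 0 h (black), 6 h (purple) and 72 h (green), with 95% intervals as bars. Filled points passed the call rule: Nr1d1 at 6 h (-1.08), and Per1 (1.76) and Ciart (2.08) at 72 h.

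Between time points within a training state, Per1 and Ciart dropped from 0 h in every comparison. In untrained muscle, 3 of the 8 were called between 0 h and 6 h (4.64% of all tested genes): Per1 fell by 1.40 and Ciart by 2.62 on the log2 scale, and Cry2 rose by 0.78 (adjusted p = 0.0117). The rise of Cry2 was not called without untrained 0 h replicate 1 or untrained 6 h replicate 3. Between 0 h and 72 h in untrained muscle, 2 of the 8 were called against 2.87%, with Per1 lower by 7.09-fold and Ciart by 7.36-fold. A fit without the shared library called 3, with Per2 lower at 72 h as well (log2 -0.93, adjusted p = 0.026). In both training states, Per1 and Ciart were called lower at 6 h and at 72 h than at 0 h without the shared library too. In trained muscle, 3 of the 8 were called between 0 h and 6 h (6.46%). Ciart fell 9.8-fold, the largest change of any of the 8 genes in the 13 comparisons, Per1 fell 4.04-fold and Nr1d1 2.49-fold. Nr1d2 fell by 0.51 on the log2 scale with an adjusted p of 0.0187, less than 1.5-fold, and was called without the shared library.

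Between 0 h and 72 h in trained muscle, 3 of the 8 were called against 5.2% of all tested genes. Per1 fell by 1.25 and Ciart by 1.11 on the log2 scale (adjusted p = 0.00573 and 0.0134). The call of Ciart was lost without trained 72 h replicate 1 and under each of the 3 other scalings, and that of Per1 under 1 of them. Per3 was higher at 72 h by 0.75 ± 0.250 SE (adjusted p = 0.0383), but its libraries overlapped. That call was lost without the shared library (adjusted p = 0.149), with the replicate number as a block, and without trained 0 h replicate 1 or 2 or trained 72 h replicate 2 or 3.

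Across the 20 distinct libraries, the repressor genes did not move as a block. On the log2 scale, Pearson's r was 0.837 between Per1 and Ciart, 0.842 between Ciart and Nr1d2, 0.758 between Per1 and Per2 and 0.75 between Per3 and Nr1d2. It was -0.718 between Cry2 and Nr1d1, and between -0.273 and 0.0448 for Cry1 with each of the others. These are descriptions over libraries that share their groups.

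Among 11818 other tested genes, the expression pattern most like that of Per1 over the same 20 libraries was that of Tob2 (r = 0.918), followed by Nfe2l2 and Cebpb (both 0.916). For Per2 these were Cep85l (0.874), Mylk4 (0.87) and Nrip1 (0.821). Per3 was closest to the clock output gene Dbp (0.923), then to Slc30a1 (0.847) and Sphk2 (0.822). Sphk2 overlaps Dbp on the other strand, so these neighbours are not separate loci. Cry1 had no near neighbour, its highest value being 0.742 with E430024I08Rik, followed by Smpd2 (0.68) and Mir7027 (0.617). Near Cry2 were Nploc4 (0.891) and Por (0.888), and Ciart was closest to Coq10b (0.906), Gm17971 (0.905) and Ier3 (0.899). Gm17971 is a processed pseudogene that lies within Coq10b on the same strand. Nr1d1 was closest to its overlapping neighbour Thra (0.949), then to Oaz2 (0.914) and Otub2 (0.898). Nr1d2 was closest to Zfp612 (0.861), to Hlf (0.853), another clock output gene, and to Mbtd1 (0.851).

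Of 5 tested genes that activate the clock (Arntl, Arntl2, Clock, Rora and Rorb), 1 was called in trained muscle at 72 h, where 0.169% of all tested genes were. In the other 5 comparisons with sedentary muscle 0 were called, where the shares of all tested genes ran from 0.00846% to 4.42%. Npas2, a further activator, had group means of at most 0.359 TPM and was not tested. Arntl, encoding BMAL1, was at 2.29 ± 0.726 TPM in trained 72 h muscle, beside 8.28 ± 1.44 in sedentary and 7.36 ± 1.12 in untrained 72 h muscle. It was lower by 1.67 ± 0.313 SE on the log2 scale than sedentary muscle (adjusted p = 0.042) and by 1.51 ± 0.313 SE than untrained 72 h muscle (adjusted p = 0.0462). In the same libraries Per1 was high and Nr1d1 stood below sedentary muscle. Rorb was called once, higher in trained muscle at 72 h than at 0 h, and not without the shared library (adjusted p = 0.065).

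Of 6 clock output and bHLH repressor genes, 1 was called in each comparison with sedentary muscle at 0 h and 6 h, and 0 at 72 h. The shares of all tested genes called lay between 3.59% and 4.42% at 0 h and 6 h. At 72 h they were 0.00846% in untrained and 0.169% in trained muscle. In the fit without the shared library, 1 of the 6 was called higher in trained 72 h muscle, against sedentary and against untrained 72 h muscle. That fit also called 1 higher in untrained muscle at 6 h than in sedentary muscle. Nfil3, a repressor at D-boxes, rose at 0 h by 1.5 ± 0.336 SE in untrained and 1.52 ± 0.336 SE in trained muscle. With the shared library left out these were 1.21, which was not called, and 1.24 (adjusted p = 0.0376). Bhlhe40, which competes for E-boxes, fell at 6 h by 0.86 ± 0.182 SE in untrained and 0.64 ± 0.182 SE in trained muscle, the latter with an adjusted p of 0.0352, or 0.051 in the fit without the shared library. Dbp, an activator at D-boxes, stood at 43.3 ± 7.55 TPM in trained 72 h muscle and 24.1 ± 8.85 in sedentary muscle, with an adjusted p of 0.454. Of 8 tested genes whose products modify PER and CRY proteins, Usp2 alone was called against sedentary muscle, beside the same shares of all tested genes. This deubiquitinase gene rose at 0 h in both training states (log2 1.22 ± 0.177 SE in each), in trained muscle at 6 h (0.93) and in trained muscle at 72 h (1.14 ± 0.177 SE, adjusted p = 0.0178). At 72 h it was higher in trained than in untrained muscle by 1.36 ± 0.177 SE (adjusted p = 0.00402).

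**Figure D5:**
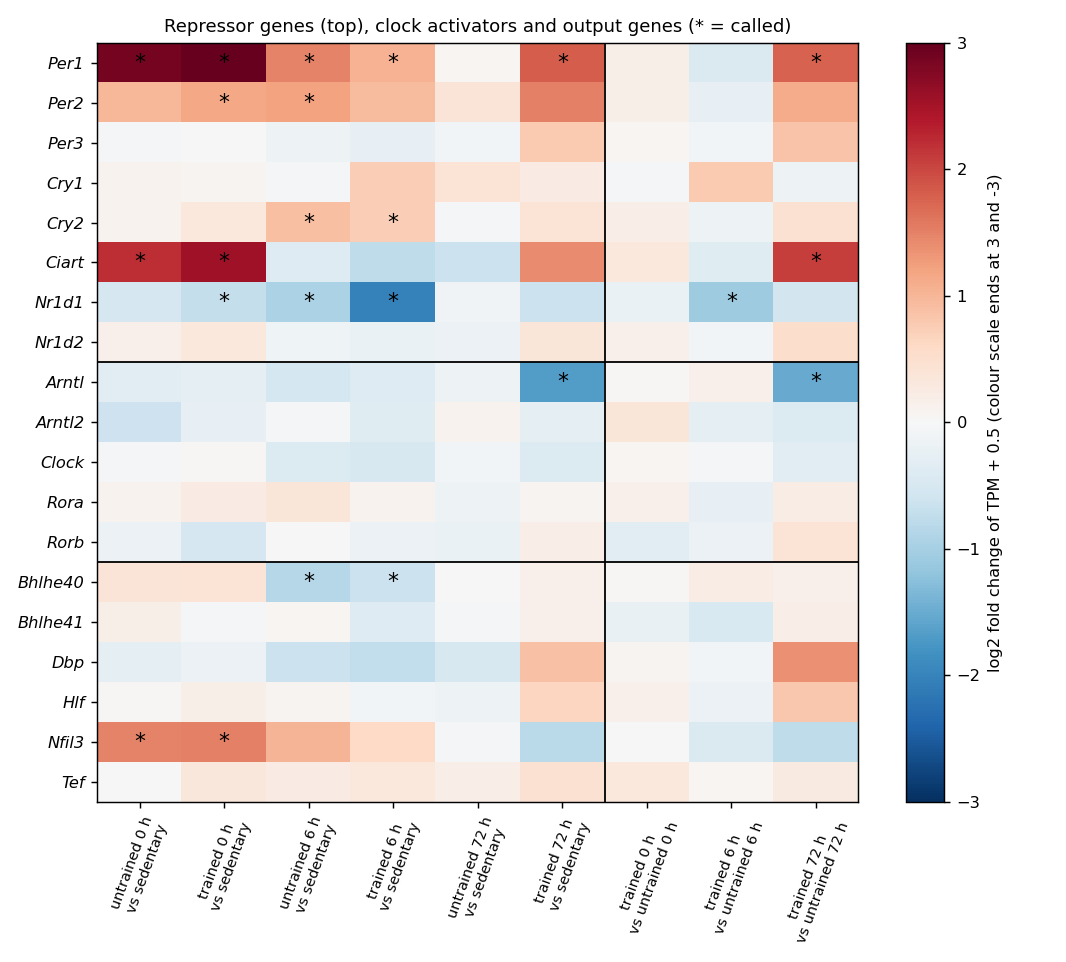
Log2 fold change of TPM + 0.5 (colour, scale ending at 3 and -3) of the 8 repressor genes (top), the tested activators (middle) and the clock output and bHLH genes (bottom) in 9 comparisons (columns). Asterisks mark called genes. In trained muscle at 72 h, Per1 was higher and Arntl lower than in sedentary muscle.

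Lists of genes known to answer the signals that also act on Per1 were counted in the same fits. Against sedentary muscle, 3.59% of all tested genes were called in untrained and 3.74% in trained muscle at 0 h. The shares were 4.42% and 3.85% at 6 h, and 0.00846% and 0.169% at 72 h. Between training states at 6 h, 2.01% of all tested genes were called. Of 10 genes responsive to the cAMP factor CREB, 9 rose at 0 h in each training state, led by Nr4a2, Fos, Atf3 and Sik1, with log2 fold changes from 3.48 (Sik1) to 6.37 (Nr4a2) in untrained muscle. The median of the list there was 2.84, beside 0.11 over all tested genes. At 6 h, 6 rose in untrained muscle, and 4 rose and 1 fell in trained muscle, where the decrease was not called without the shared library. At 72 h, 0 of 10 were called in either training state. Of 12 glucocorticoid-responsive genes, a list that includes Per1, 8 rose at 0 h in each training state, led by Ddit4 (4.10 in untrained muscle), Per1, Mt2 and Mt1, with a list median of 1.36 in untrained muscle. At 6 h, 8 rose in untrained (7 without the shared library) and 7 in trained muscle. In trained muscle at 72 h, Per1 was the only one of the 12 called, and the list median was 0.27, beside -0.04 over all tested genes. With so few genes called at 72 h, a count of 0 does not set a list apart from all tested genes. All 6 heat shock genes rose at 0 h in both states and at 6 h in untrained muscle, and 5 did in trained muscle at 6 h. All 6 were, at 6 h, lower with training than without, led by Hspa1b (-5.01), where Nr1d1 also differed, and 0 of 6 were called at 72 h. The counts of these lists at 0 h against sedentary muscle were the same without the shared library (9, 8 and 6 in each training state).

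Markers of other cell types moved with some of these differences. At 6 h, 2 of 7 tested macrophage markers (Cd68 and Csf1r) were lower with training, and the summed TPM of the list ranged from 35.7 to 52.0 in trained and from 38.3 to 80.4 in untrained libraries. Of 6 slow fibre markers, Myl2 was higher in trained muscle at 6 h, and the list summed to between 348 and 1019 TPM in trained and between 223 and 329 in untrained libraries. At 72 h, Cd68 alone was lower in trained muscle (log2 -1.24 ± 0.2 SE), with macrophage sums from 45.2 to 52.1 TPM in trained and from 61.5 to 66.1 in untrained libraries. Against sedentary muscle, 2 of 7 macrophage markers (Cd68 and Csf1r) were called higher in untrained muscle at 6 h, and 5 were not called. At 72 h, 1 of 7 (Cd68) was called higher in untrained muscle, and 6 were not called. Of 6 slow fibre markers, 1 (Myl3) was called lower in untrained muscle at 0 h and 2 (Myl2 and Myl3) at 6 h. The shares of all tested genes called in untrained muscle were 3.59% at 0 h, 4.42% at 6 h and 0.00846% at 72 h. At 0 h, 1 of 6 endothelial markers (Kdr) was called lower than in sedentary muscle in each training state, and 5 were not called. The list medians there were -0.175 in untrained and -0.12 in trained muscle. In trained muscle at 6 h, 2 of 6 fibro-adipogenic markers (Col1a1 and Col3a1) were called lower than in sedentary muscle, and 4 were not called. In the fit without the shared library, the calls of Kdr (adjusted p = 0.0892 in untrained and 0.13 in trained muscle), Myl3 at 0 h (0.0811), Myl2 at 6 h (0.0592 against sedentary and 0.0593 between training states) and Col1a1 (0.0665) were lost. No adipocyte marker was called in any comparison, and red blood cell markers were called only between untrained 72 h and 0 h muscle, where 3 of 4 were higher at 72 h. The part of these cell types in the values of the repressor genes was not tested.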

How the data were processed

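RNA-seq libraries of quadriceps muscle from 21 samples were analysed. Per the labels and the study's methods, the authors made TruSeq RNA v2 libraries from total RNA, aligned reads to GRCm39 and deposited 1 table of TPM values per gene symbol. The submitters' processing notes list STAR 2.7.9, Salmon 1.5.0 and DESeq2 3.16. TPM carries no counts, so depth is unknown and no count test was run. All columns were assigned to samples by name, and 0 were left out.

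The scale of all tests was log2(TPM + 0.5), over the genes whose mean reached 1 TPM (11819 of 53738, all 8 clock repressors among them). limma 3.58.1 (R 4.3.3) fitted 7 group means, with a variance trend and 14 residual degrees of freedom. P values were adjusted by Benjamini-Hochberg over all tested genes in each of 13 comparisons. A call needed an adjusted p below 0.05 and 1.5-fold. P values set the difference between group means against the spread between libraries within groups, estimated over all 7. The 14 residual degrees of freedom count the shared library in both of its groups. Fold changes on this scale understate those of low genes such as Per2. The procedure was tested on simulated data.

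The genes named are the 8 repressors, members of gene lists (up to 4 per list, those with the largest called changes), the 3 tested genes with the highest Pearson r to each repressor, and genes overlapping one. Some genes that these rules would name are not reported here. Activators and outputs shown with a value but not called were chosen after their values were seen. The repressors and lists were chosen with earlier results of these data known. Promoter letters were read from GRCm39 with GENCODE M39 in Python 3.11.15, and figures were drawn with matplotlib 3.10.9. Alternatives covered pseudocounts of 0.1 and 1, filters, scaling, variance model, samples in the fit, the call rule, the replicate block, the shared library and leaving out each library.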

Additional observations from a re-analysis of the deposited data

Results flagged for a closer look

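Trained and untrained muscle differed past the threshold in 3 results of the repressor genes. The level of Nr1d1 at 6 h differed between trained and untrained muscle by -1.08 on the log2 scale (limma, adjusted p = 0.00108), with all trained libraries lower. That of Per1 at 72 h differed by 1.76 (adjusted p = 0.0125) and that of Ciart at 72 h by 2.08 (adjusted p = 0.00679), with all trained libraries higher. With only the compared groups in the fit, the adjusted p was 0.151 for Nr1d1, 0.0635 for Per1 and 0.0707 for Ciart. Dixon's test for an outlying library was not run, since the groups hold 3 libraries each.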

How the results depend on the processing

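Of 247 recounts of called repressor genes over 13 comparisons, 218 stayed within 1.5 times the first count and 29 did not. No log2 fold change of the 39 followed gene results changed sign, and 13 of the 28 called kept their call under every alternative. With only the compared groups in the fit, the counts were 2 for trained 0 h, 2 for untrained 6 h and 0 for trained 72 h against sedentary muscle, 0 for trained against untrained muscle at 6 h and 0 at 72 h, and 1 for trained 72 h against 0 h. Without a filter on low values they were 1 for trained 6 h and 0 for trained 72 h against sedentary muscle, 1 between training states at 72 h and 1 for trained 72 h against 0 h. For trained 72 h against sedentary muscle, a mean of at least 5 TPM gave 2, median-of-ratios scaling 3, quantile normalization 2, rescaling without mitochondrial and the 10 highest genes 3, sample quality weights 4, and leaving out the shared library 3. Quality weights gave 4 between training states at 72 h, and rescaling gave 1 for trained 72 h against 0 h. The share of all tested genes called under each setting is not given here, so these counts have no background beside them. The cause of these differences was not tested. Leaving out 1 library at a time gave counts from 2 to 4 for trained 0 h, 1 to 3 for trained 6 h and 0 to 2 for trained 72 h against sedentary muscle, and from 1 to 2 between training states at 72 h.

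Scaling moved the median of all tested genes by up to -0.18 (log2) for trained 0 h against sedentary muscle and by up to 0.261 for trained 72 h against 0 h, and under the 3 scalings Nr1d1 was also called at 0 h in untrained muscle (adjusted p between 0.0139 and 0.0324). Same-numbered libraries did not deviate together (mean r = 0.0153 over 62 pairs, -0.013 over 126 pairs of other numbers). With the replicate number as a block, 2 genes in place of 3 were called for trained 72 h against 0 h, where Per3 was lost (adjusted p = 0.0504), and no other call changed. The deposited TPM limit what can be said of low genes, since Per2 averaged under 1 TPM in 2 groups and its counting error is unknown.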
